A study of Mus musculus with 22 samples.

Results

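The transcripts described are those of the mitochondrial ribosomal protein genes, the nuclear genes named Mrpl (large subunit) and Mrps (small subunit), in the mouse collecting duct cell line mpkCCD. A row of the deposited table was taken when its gene symbol began with Mrpl or Mrps followed by a number, did not carry a pseudogene name, and had a mean of at least 1 TPM (a transcript level corrected for transcript length and scaled to a fixed total per library) over the 22 libraries. Of 84 rows with such a name, 6 carried pseudogene names and 78 were members, out of 54514 gene entries in all. No row without a pseudogene name fell under the threshold. The lowest member, Mrpl1, averaged 12.6 TPM and the next, Mrpl19, 17.6 TPM, while the pseudogene-named rows averaged 0.028 to 5.44 TPM. All 78 members were above 0 in every library, and the lowest value of any member in any library was 7.20 TPM.

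All libraries came from mpkCCD cells, which come from the kidney's cortical collecting duct and were grown on permeable supports, then kept in serum-free medium with dexamethasone. Unsorted wild-type (WT) cells received vehicle (3 libraries) or dDAVP, an agonist of the vasopressin V2 receptor (3 libraries). The 4 reporter lines, named C1, C11, C43 and C50, carry GFP. Every one of them received dDAVP and was divided into GFP-negative and GFP-positive cells, with 2 libraries per line and fraction (16 libraries). The title of the series names variability of aquaporin-2 (Aqp2, the vasopressin-regulated water channel) between cells as the subject. Each reporter line is named as a single clone, so a difference between lines is a difference between 4 clones, and no GFP-negative fraction without dDAVP was analysed here. The labels name several doses and durations of dDAVP without assigning them to libraries. Nothing states that replicates were separate cultures, so p-values measure the spread between these libraries, which may be technical.

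The mitochondrial ribosome translates the few messages encoded by mitochondrial DNA, which specify core subunits of the respiratory chain and of ATP synthase. Its RNAs come from mitochondrial DNA, whereas all of its proteins are encoded in the nucleus, made in the cytosol and imported. Some of these proteins have counterparts in the bacterial ribosome and others occur only in mitochondria. Their promoters are known for binding sites of nuclear respiratory factors, among them NRF1 and the ETS factor GABP, and collecting duct principal cells use mitochondrial ATP for sodium transport.

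The promoters of 4 members are shown because the results turn on these genes: Mrpl35 and Mrps6 rose with dDAVP and in GFP-positive cells, and Mrpl20 and Mrpl22 had the largest falls in GFP-positive cells. Each window runs from 250 bases before to 50 bases after the annotated start, 5′ to 3′ on the gene's strand, from RefSeq on GRCm38.p6. Capitals mark matches to the motifs searched.
Mrpl35, chr6:71823735-71824034, minus strand: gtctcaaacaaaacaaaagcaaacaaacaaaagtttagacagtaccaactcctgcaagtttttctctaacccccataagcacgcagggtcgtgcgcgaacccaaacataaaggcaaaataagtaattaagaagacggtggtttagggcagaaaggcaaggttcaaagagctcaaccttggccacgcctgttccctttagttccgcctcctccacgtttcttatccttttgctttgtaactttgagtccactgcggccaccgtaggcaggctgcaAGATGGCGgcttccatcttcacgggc
Mrps6, chr16:92058086-92058385, plus strand: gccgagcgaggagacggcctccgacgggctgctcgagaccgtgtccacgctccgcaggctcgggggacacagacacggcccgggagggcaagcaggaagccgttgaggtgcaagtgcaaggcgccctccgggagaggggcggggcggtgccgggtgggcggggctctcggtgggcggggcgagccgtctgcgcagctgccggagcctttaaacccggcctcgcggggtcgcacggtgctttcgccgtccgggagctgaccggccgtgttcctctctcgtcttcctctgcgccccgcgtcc
Mrpl20, chr4:155802628-155802927, plus strand: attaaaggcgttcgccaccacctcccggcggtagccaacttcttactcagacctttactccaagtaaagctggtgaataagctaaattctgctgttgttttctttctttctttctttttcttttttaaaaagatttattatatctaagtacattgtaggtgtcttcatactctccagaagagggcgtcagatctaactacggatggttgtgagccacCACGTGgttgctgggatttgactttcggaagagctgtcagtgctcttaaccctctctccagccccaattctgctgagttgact
Mrpl22, chr11:58171414-58171713, plus strand: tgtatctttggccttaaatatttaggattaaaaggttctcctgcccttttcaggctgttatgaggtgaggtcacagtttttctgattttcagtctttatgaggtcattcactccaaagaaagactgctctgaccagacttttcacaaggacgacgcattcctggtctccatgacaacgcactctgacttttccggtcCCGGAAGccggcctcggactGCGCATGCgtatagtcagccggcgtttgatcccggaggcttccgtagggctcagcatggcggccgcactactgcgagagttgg
In the Mrpl22 window the capitals are an ETS match at position -53 and an NRF1 match at position -33, counted from the start. The Mrpl20 window holds an E-box match at -33, the Mrpl35 window a YY1 match at 25 after the start, and the Mrps6 window none of the letters searched.

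Promoter windows were found for 69 of the 78 members (75 windows, some genes having more than one). Both strands were searched for NRF1 (GCGCATGC), ETS (CCGGAAG), YY1 (AGATGGCG), E-box (CACGTG), CRE (TGACGTCA) and the box with the letters TATAAA. No motif contains another. The ETS letters were in 34.7% of member windows, 18.4% of windows of genes with a mean of at least 1 TPM and 8.86% of all windows. NRF1 letters were in 10.7%, 5.26% and 2.71% of the same sets, and YY1 letters in 10.7%, 3.78% and 1.95%. E-box letters (9.33%, 10.0% and 7.15%) and CRE letters (2.67%, 3.10% and 1.79%) were about as frequent in member windows as in expressed ones. So were those of the last motif searched (6.67%, 6.83% and 13.6%). Counted by gene, E-box letters were in 5 of 69 members and 1122 of 9392 expressed genes, several of the member windows being of Mrpl2. An NRF1 or ETS match was present in 30 members: in 17 of the 39 members with a window that fell in GFP-positive cells, in 13 of the 28 that were not called there, and in neither of the 2 that rose. A match is a string of letters and not a measured binding site.

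The cells expressed collecting duct markers: 14 of 16 principal-cell markers averaged at least 1 TPM, with a summed level of 10025 to 25117 TPM per library. None of 4 endothelial and none of 6 fibroblast markers reached a mean of 1 TPM, and 1 of 7 intercalated-cell (Atp6v1b1), 1 of 6 proximal-tubule (Lrp2) and 1 of 6 immune markers (Csf1r) did. Sequencing depth is unknown, because TPM keep none. The number of genes above 0 TPM fell in 2 separate ranges, 17206 to 20288 in 10 libraries and 23174 to 31393 in 12, and the labels give no batch for this. The library labelled C50 GFP-negative replicate 1 stood apart: 52 of the 78 members had their highest value there, and cytosolic ribosomal protein transcripts made up 8.38% of its TPM against 3.88% to 6.17% in the other 21. In bulk RNA, fewer cells of a kind and less RNA per cell cannot be told apart.

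The mean level of the members spanned a 48.9-fold range, with a median of 105 TPM. The 5 highest were Mrps6 (614 TPM), Mrpl54 (384 TPM), Mrps21 (372 TPM), Mrpl42 (343 TPM) and Mrpl14 (340 TPM), drawn from both subunits. The 5 lowest were Mrpl1 (12.6 TPM), a protein of the mobile stalk near the tRNA exit site, Mrpl19 (17.6 TPM), Mrpl50 (20.4 TPM), Mrps31 (21.96 TPM) and Mrps22 (23.3 TPM). The 30 large-subunit members with bacterial counterparts had a median of 107 TPM, the 21 mitochondria-specific large-subunit members 107 TPM and the 16 small-subunit members with bacterial counterparts 109 TPM. The 10 mitochondria-specific small-subunit members had a lower median level, 48.9 TPM. Mrps30 and Mrps18a, which carry small-subunit names, were counted with the large subunit, where their proteins sit, and Mrps36 (28.1 TPM), now known as a subunit of the 2-oxoglutarate dehydrogenase complex, was kept apart.

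Across the 10 groups most members moved within a narrow range. The ratio of the highest to the lowest group mean was 1.68 in the median member, from 1.23 for Mrps2 to 3.55 for Mrpl35. It was under 2 for 66 members and at least 2 for 12, and 53 members had their highest group mean in C50 GFP-negative cells. These values rest in part on the library that stood apart. Without it the median was 1.57, and the ratio was at least 2 for 6 members (Mrpl20, Mrpl22, Mrpl35, Mrpl49, Mrps22 and Mrps6, named after their values were seen). C50 GFP-negative cells were then highest for 21. The same ratio was 1.81 in the median of 8753 genes with a mean of at least 10 TPM, 1.64 in 82 cytosolic ribosomal protein genes and 1.64 in 78 nuclear oxidative phosphorylation genes. Without that library these were 1.73 (8785 genes), 1.37 and 1.48. The group order was shared by most members: the median Spearman correlation of a member's group means with the average of the other members was 0.745 over the 10 groups, and 57 members exceeded 0.5 (0.697 and 56 without that library). With all libraries the 4 members with a negative value were Mrpl49 (-0.27), Mrpl35 (-0.19), Mrps6 (-0.04) and Mrps31 (-0.04). Without that library 7 were negative, these 4 and Mrpl17, Mrpl57 and Mrps16. Depth and composition of each library are shared by all genes in it, so these correlations are a description only.

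The summed level of the members was 8006, 9222 and 9595 TPM with vehicle and 11050, 8980 and 10116 TPM with dDAVP in WT cells, and the groups overlapped. In C1 it was 10357 and 9345 TPM in GFP-negative and 8676 and 8834 TPM in GFP-positive cells. In C43 it was 11182 and 11672 TPM against 10201 and 10469 TPM. In both clones each GFP-negative library lay above each GFP-positive one. In C11 the fractions overlapped, with 10452 and 9306 TPM against 9863 and 9485 TPM. In C50 the GFP-negative libraries held 14667 and 10694 TPM and the GFP-positive ones 9056 and 8635 TPM, so the fractions did not overlap although the first library is the one that stood apart. In the order of group means, C50 and C43 GFP-negative cells were highest and C50 and C1 GFP-positive cells lowest. Only C43 GFP-negative cells, in second place, were separated without overlap from the group next below (C43 GFP-positive).

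**Figure D1:**
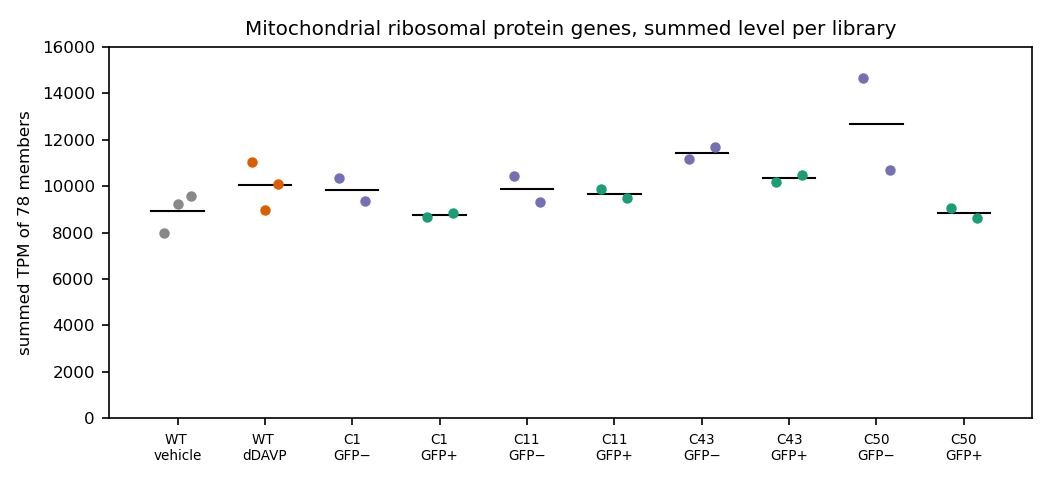
Summed level of the 78 members in TPM (vertical axis) for each library (points) in the 10 groups, with horizontal bars at the group means. Values run from 8006 TPM in a WT vehicle library to 14667 TPM in the C50 GFP-negative library that stood apart, and GFP-negative means exceed GFP-positive means in all 4 clones.

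As a share of the summed level of cytosolic ribosomal protein transcripts, the members made up 21.5% in C1, 21.7% in C11 and 21.6% in C43 GFP-negative cells, and 18.9%, 19.9% and 20.4% in the GFP-positive cells of these clones. In C50 the GFP-negative libraries were at 17.5% and 21.9% and the GFP-positive ones at 19.2% and 17.8%. As a share of nuclear oxidative phosphorylation transcripts, the group means of the members stayed between 24.0% and 26.0% in all 10 groups, and up to 26.1% without the C50 library that stood apart. The ratio to respiratory chain transcripts therefore varied less over the groups than the ratio to cytosolic ribosomal protein transcripts. The mean level per large-subunit gene over that per small-subunit gene was 1.093, 1.095, 1.055 and 1.118 in GFP-negative cells of C1, C11, C43 and C50, in that order, and 1.074, 1.024, 0.962 and 1.041 in GFP-positive cells. The small-subunit sum includes Mrps6, the most abundant member, which rose in GFP-positive cells, and its part in these ratios was not tested.

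In WT cells, which tests the effect of dDAVP, 2 of 78 members rose and none fell. These were Mrps6 and Mrpl35. Called means an adjusted p under 0.05 in limma's moderated test on log2(TPM + 1), with Benjamini-Hochberg adjustment over all 13494 genes. Of all genes, 2.37% were called higher and 6.51% lower, so the share of members called higher, 2.56%, was near the background. The median log2 difference was 0.10 over the members and -0.16 over all genes. It was above 0 in 63 of 78 members and in 3996 of 13494 genes. Cytosolic ribosomal protein genes and nuclear oxidative phosphorylation genes lay further in the same direction, with medians of 0.25 (80 of 82 above 0, 3 called higher) and 0.19 (74 of 78, 1 called higher). The member median was 0.04 without vehicle replicate 1 and likewise without dDAVP replicate 1, and 0.16 without dDAVP replicate 2. With median-ratio scaling, which brings the median of all genes to 0.00 (a shift of 0.16), the member median was 0.27 and all 78 were above 0, again with 2 called. That scaling also changes the all-gene background from 26.7% higher calls among all calls to 59.6%.

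Mrps6, a small-subunit protein with a bacterial counterpart (ENSMUSG00000039680), was measured at 319, 364 and 384 TPM with vehicle and 641, 529.9 and 602 TPM with dDAVP. Every dDAVP library lay above every vehicle library. The log2 difference was 0.73 (SE 0.10, limma adjusted p = 0.00804). Mrpl35, a large-subunit protein with a bacterial counterpart (ENSMUSG00000052962), was measured at 101, 118 and 120.0 TPM with vehicle and 180.2, 168 and 159.7 TPM with dDAVP. Again the groups did not overlap, and the log2 difference was 0.58 (SE 0.09, limma adjusted p = 0.0133). In a fit of just the 4 WT libraries that had more genes above 0 the sizes were 0.73 and 0.58, with limma adjusted p of 0.0784 and 0.121. Gene models place exons of Slc5a3, a myo-inositol transporter gene, on the same strand within Mrps6, and the division of reads between the genes is not given in the sources used here. Slc5a3 averaged 11.9 TPM with vehicle and 11.2 TPM with dDAVP. No other gene's exons overlap Mrpl35.

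The dDAVP and vehicle libraries did not overlap for 7 members, all with dDAVP above vehicle, against 7.12% of all genes in that direction, and for no member in the other, against 28.7% of all genes. Beside the called pair these were Mrpl45, Mrpl46, Mrpl9, Mrps15 and Mrps18b. Mrpl45, which tethers the ribosome to the inner membrane at the tunnel exit, was at 43.6, 48.5 and 44.2 TPM with vehicle and 56.8, 52.5 and 59.0 TPM with dDAVP. Its log2 difference of 0.30 (SE 0.08) had a limma adjusted p of 0.0675. Mrps18b, a mitochondria-specific small-subunit protein, differed by 0.30 (SE 0.08, limma adjusted p = 0.0609). Neither passed the threshold. Without dDAVP replicate 2, 4 members were called higher (5.13%, against 2.79% of all genes). With genes detected as a covariate 8 members were called higher (10.3%, against 3.95%), and with the transcript length correction 5 (6.41%, against 4.88%).

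**Figure D2:**
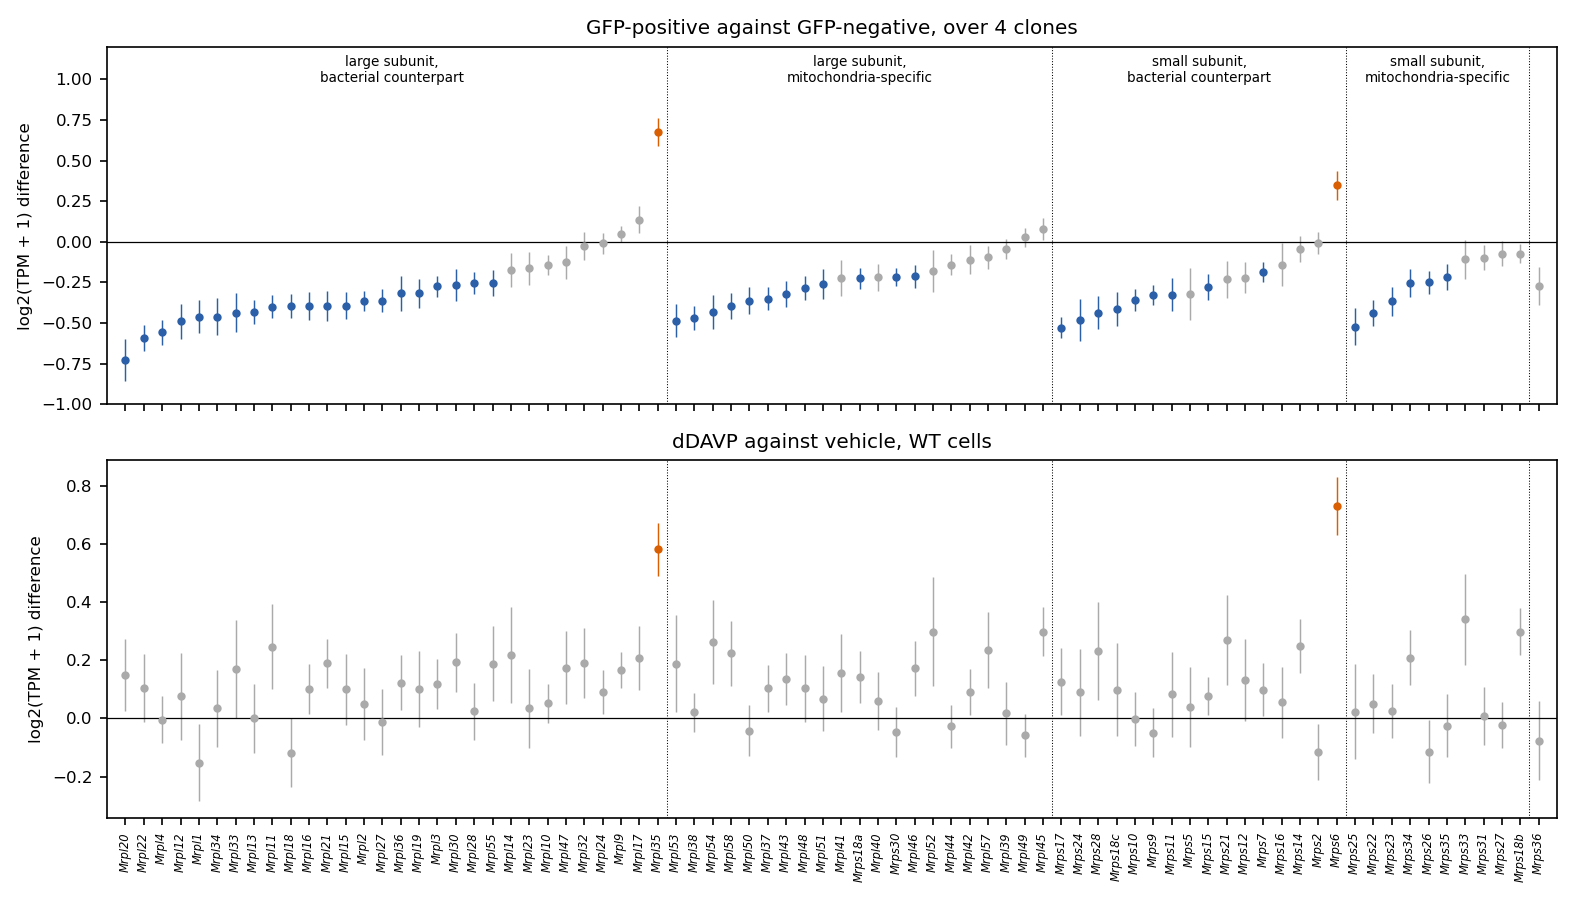
Difference in mean log2(TPM + 1) (vertical axes) for each of the 78 members, with bars of 1 standard error, for GFP-positive against GFP-negative cells over the 4 clones (top) and dDAVP against vehicle in WT cells (bottom). Members are grouped by subunit and origin and ordered by the upper values; blue points fell, orange points rose and grey points were not called. In the top panel 48 members are blue and 2, Mrpl35 and Mrps6, are orange; the same pair is orange in the bottom panel.

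In the clones, where GFP-positive and GFP-negative cells were compared under dDAVP, 48 members fell in GFP-positive cells and 2 rose. Of all 13113 genes 23.2% were called lower and 12.1% higher, so the 61.5% of members called lower exceeded the background. The median log2 difference was -0.27 over the members, against -0.06 over all genes, -0.10 over cytosolic ribosomal protein genes (8 of 82 lower) and -0.17 over nuclear oxidative phosphorylation genes (22 of 78 lower). The member count depended on the scaling while its median stayed below 0: 19 members were called lower with median-ratio scaling (24.4%, against 17.5% of all genes), and 31 with quantile normalization (39.7%, against 19.2%). Correcting for transcript length left 27 (34.6%, against 19.2%), member transcripts having a median length of 848 bases against 1207 in tested genes. Each of these leaves 2 members higher, and moves the all-gene calls from 34.2% to between 49.9% and 50.9% higher. With clone means as replicates 25 members fell (32.1%, against 13.8% of all genes) and 1 rose. A fit with no clone term gave 36 lower (46.2%, against 16.8%) and 1 higher. Without C50 GFP-negative replicate 1, 47 members fell (60.3%, against 32.6% of all genes) and 3 rose, and the median was -0.21 against -0.11 over all genes. The 8 clone libraries with fewer genes detected gave 1 member lower (1.28%, against 1.21% of all genes), where an unadjusted p under 0.05 was reached by 31 members and by 2569 of 12776 genes. The 8 libraries with more gave 20 lower (25.6%, against 21.8% of all genes).

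The falls occurred in each of the 4 classes of ribosomal members, beside 23.2% of all genes called lower. Among large-subunit members with bacterial counterparts 21 of 30 fell and 1 rose. Among mitochondria-specific large-subunit members 12 of 21 fell and none rose. In the small subunit 9 of 16 with bacterial counterparts fell and 1 rose, and 6 of 10 mitochondria-specific ones fell. Of the 3 proteins of the stalk that recruits translation factors, Mrpl11 fell by 0.40 (SE 0.07) and Mrpl12 fell by 0.49 (SE 0.11), while Mrpl10 was not called (-0.14, SE 0.06). Of the 8 members placed around the exit of the peptide tunnel only Mrpl22 fell (12.5%, under the share of all genes), and their median was -0.09. Mrps36, the member that is no ribosomal protein, was not called (-0.27, SE 0.12).

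Mrpl20, a large-subunit protein with a bacterial counterpart (ENSMUSG00000029066), had the largest fall. GFP-negative cells of C1 held 122 and 88.9 TPM, those of C11 102 and 83.8, of C43 126 and 120.5, and of C50 189 and 107. In GFP-positive cells it was at 75.1 and 74.6, 69.4 and 65.5, 74.2 and 68.7, and 64.4 and 57.7 TPM in the same clones. Every GFP-negative library lay above every GFP-positive library. The log2 difference was -0.73 (SE 0.13, limma adjusted p = 0.00053).

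Mrpl22 (ENSMUSG00000020514), which lines the peptide tunnel, was at 68.9 and 62.9 TPM in GFP-negative cells of C1, 80.2 and 73.0 for C11, 92.5 and 94.7 for C43, and 115 and 77.7 for C50. In GFP-positive cells it was at 45.6 and 47.5, 52.9 and 59.0, 61.6 and 57.9, and 54.1 and 53.9 TPM. The fractions did not overlap in any clone, nor over all 16 libraries. Mrpl22 fell by 0.59 (SE 0.08, limma adjusted p = 5.75e-05).

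Mrpl4, a large-subunit protein that also reaches into the tunnel wall (ENSMUSG00000003299), fell by 0.56 (SE 0.08, limma adjusted p = 5.51e-05). Its GFP-negative values were 157 and 137 TPM (C1), 117 and 106 (C11), 136 and 129 (C43), and 174 and 146 (C50), against 104 and 118, 87.0 and 85.7, 83.2 and 88.0, and 92.4 and 85.6 in GFP-positive cells. The fractions did not overlap within any clone, although the C1 GFP-positive values reached the range of the C11 GFP-negative ones. Mrps17, a small-subunit protein with a bacterial counterpart, fell by 0.53 (SE 0.06, limma adjusted p = 2.24e-05). Mrps25, a mitochondria-specific small-subunit protein, fell by 0.52 (SE 0.12, limma adjusted p = 0.00266), and its exons overlap those of Nr2c2 on the opposite strand. With a kit that does not mark strand, reads from the overlap cannot be told apart.

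Mrpl35 and Mrps6 were the members that rose. In GFP-negative cells Mrpl35 was at 93.5 and 91.3 TPM for C1, 124 and 116 for C11, 160.1 and 172 for C43, and 178 and 124 for C50. In GFP-positive cells it was at 122 and 132, 205 and 205, 317.5 and 338, and 215 and 207 TPM. GFP-positive values lay above GFP-negative values in every clone, and Mrpl35 was the only member for which this held, against 6.72% of all genes. The log2 difference was 0.68 (SE 0.09, limma adjusted p = 3.06e-05).

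In GFP-negative cells Mrps6 was at 513 and 471 TPM for C1, 543 and 498 for C11, 684 and 798 for C43, and 673 and 461 for C50. In GFP-positive cells it was at 541 and 517, 763.5 and 756, 1033 and 1175, and 637 and 610.3 TPM. The fractions separated in C1, C11 and C43 and overlapped in C50, where the GFP-negative library that stood apart was the highest. Slc5a3, the gene with exons within Mrps6, had higher means in GFP-positive cells of every clone: 12.6 and 13.4 TPM in GFP-negative and GFP-positive cells of C1, 10.4 and 14.3 of C11, 13.6 and 16.5 of C43, and 7.11 and 20.6 of C50. Its log2 difference was 0.58 (SE 0.22, limma adjusted p = 0.0532), and its part in the Mrps6 value was not tested. The log2 difference was 0.35 (SE 0.09, limma adjusted p = 0.00711), and with clone means as replicates it was 0.34 with an adjusted p of 0.0755. Leaving out C11 gave an adjusted p of 0.0808 and leaving out C43 gave 0.0756.

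**Figure D3:**
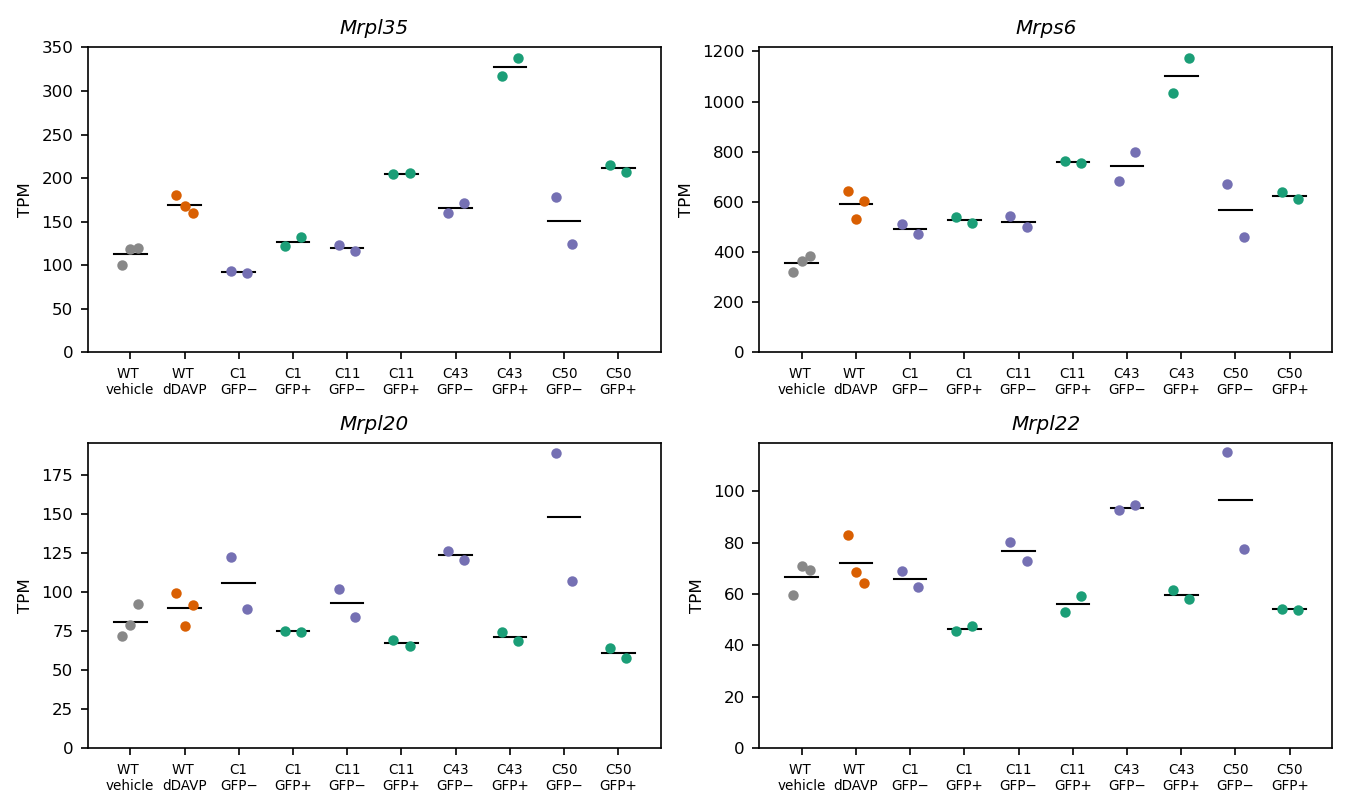
TPM (vertical axes, starting at 0) of Mrpl35, Mrps6, Mrpl20 and Mrpl22 in every library (points) of the 10 groups, with bars at the group means. Mrpl35 and Mrps6 reach their highest values, 338 and 1175 TPM, in C43 GFP-positive cells, whereas Mrpl20 and Mrpl22 reach theirs, 189 and 115 TPM, in a C50 GFP-negative library.

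Over the 10 group means, the Spearman correlation with Aqp2, the gene named in the series title, was 0.952 for Mrpl35 and 0.879 for Mrps6, the highest 2 among the members. The next was Mrpl17 at 0.648, and the lowest was Mrpl1 at -0.83. Aqp2 was chosen for this after the values were seen. Mrpl35 and Mrps6 were already known to rise with dDAVP and in GFP-positive cells, and Aqp2 group means rose in the same comparisons. The correlation over these groups is therefore a description and no further test. For Mrpl35, C43 GFP-positive cells (328 TPM ± 14.6, SD, n = 2), C50 GFP-positive cells (211 ± 5.44) and C11 GFP-positive cells (205 ± 0.445) came first and did not overlap with one another. C1 GFP-negative cells came last (92.4 ± 1.58 TPM). The groups from WT dDAVP to WT vehicle between them overlapped with their neighbours. For Mrps6 C43 GFP-positive cells were again highest (1104 ± 100.3 TPM) and WT vehicle cells lowest (355 ± 33.4 TPM, n = 3).

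Within single clones, an excess of falls over the background held in C50 under most settings and was not stable in C43. In C1, 3 members fell (Mrps17, Mrpl2 and Mrpl11) and none rose (3.85% lower), against 4.91% of all genes lower and 2.31% higher. In C11, 1 fell (Mrps22) and 2 rose (Mrpl35 and Mrps6; 1.28% lower), against 5.7% and 2.23%. Several of these single calls ended under many of the 25 alternatives run. In C1 Mrps17 was still called in 18 of them, and Mrpl2 and Mrpl11 in 8 each. In C11 Mrpl35 was still called in 22, Mrps22 in 11 and Mrps6 in 6. In C43, 16 fell and 2 rose (the same pair; 20.5% lower), against 12% and 4.29%. In C50, 46 fell and 1 rose (Mrpl35; 59.0% lower), against 13.8% and 12.8%.

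The C43 share was under that of all genes in several settings. With median-ratio scaling no member fell in C43 (7.85% of all genes), with the transcript length correction none (8.67%), and with quantile normalization 6.41% (9.14%). It was 2.56% without C43 GFP-negative replicate 1 (4.92% of all genes), 6.41% without GFP-negative replicate 2 (6.55%) and 5.13% without GFP-positive replicate 2 (6.35%). In C50 the members' share was 42.3% without GFP-negative replicate 1 (15.9% of all genes), 38.5% without GFP-positive replicate 1 (8.48%), 26.9% without GFP-positive replicate 2 (7.55%) and 48.7% with the transcript length correction (15.4%). A fit of the 4 C50 libraries alone called no member and 0.123% of all genes lower. Leaving out either C50 GFP-negative library also raised the calls over all genes in the other clones. Without replicate 1 of that pair, 19.2% of members fell in C1 (10.9% of all genes), 10.3% in C11 (13.0%) and 43.6% in C43 (21.8%). A lone library is then assumed to vary like the other groups.

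The member medians were -0.20, -0.11, -0.25 and -0.56 in C1, C11, C43 and C50, beside -0.06, -0.12, -0.16 and 0.09 over all genes. In C11 the 2 medians were nearly equal, and the member median there turned to 0.04 with median-ratio scaling and 0.01 with the transcript length correction. In C43 these settings gave -0.06 and -0.07. Without C1 GFP-negative replicate 1 the C1 median was -0.11, close to the -0.10 of all genes. Without C11 GFP-negative replicate 1 the C11 median was -0.04 against -0.15 over all genes. Without C50 GFP-negative replicate 1 the C50 median was -0.34 against -0.09 over all genes.

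**Figure D4:**
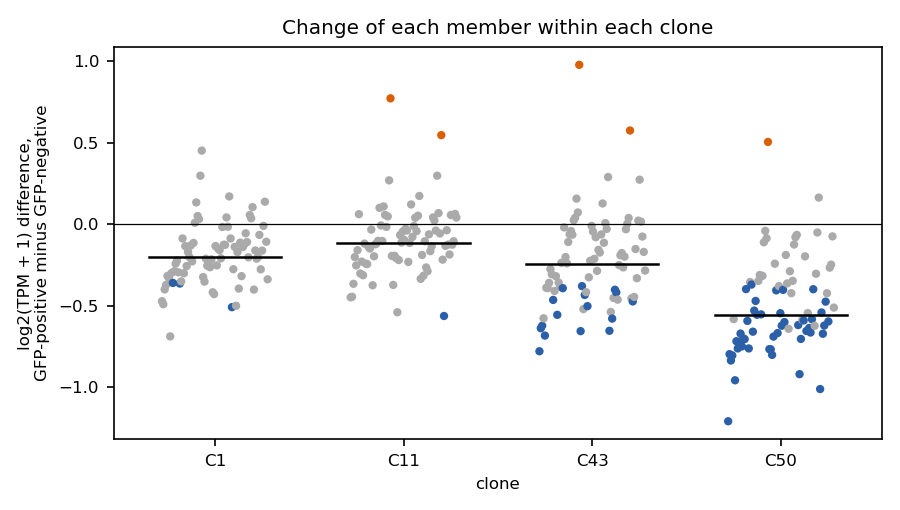
Difference in mean log2(TPM + 1), GFP-positive minus GFP-negative (vertical axis), of each member (points) in each clone (horizontal axis), with bars at the medians; blue points fell, orange points rose and grey points were not called. As deposited, the median is below 0 in each clone, from -0.11 in C11 to -0.56 in C50; in C11 it is 0.04 with median-ratio scaling and 0.01 with the transcript length correction.

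No member fell in all 4 clones by the test, against 2.14% of all genes. In at least 1 clone 48 members fell (61.5%, against 19.4%), and 46 of these were called in C50. In both C43 and C50 14 fell (17.9%, against 7.48%), and the C43 calls depended on the setting. By sign alone 52 members were lower in GFP-positive cells in all 4 clones and 2 higher, against 3564 and 2120 of 13113 genes. Without C50 GFP-negative replicate 1 these were 52 and 4 members, against 4777 and 2129 genes. In each of the 4 clones both GFP-negative libraries lay above both GFP-positive ones for 30 members, against 12.2% of all genes. Without that library the count was again 30, against 19.5%. A test of whether the GFP difference varies between clones (limma's interaction F-test) called 0 members, with 9 at an unadjusted p under 0.05, against 0.869% of all genes. Without C50 GFP-negative replicate 2 that test called 40 members (51.3%) and 38.6% of all genes. With all libraries in place, the fall in C50 is not shown to differ in size from that in the other clones.

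Levels averaged over both fractions differed between clones for 24 of 78 members (30.8%, against 28% of all genes), a share near the background. Mrpl49, a mitochondria-specific large-subunit protein, differed most (limma F = 57.6, adjusted p = 2.78e-06). It was at 257, 254, 283 and 292 TPM in the 4 C1 libraries and between 120.2 and 170.0 TPM in all 12 others, and did not differ between fractions by the test. Its exons overlap Syvn1 on the opposite strand, and Syvn1 was also highest in C1 (78.1 and 74.1 TPM by fraction, against 29.1 to 51.2 TPM in the other clones). The next by p were Mrpl35 (F = 28.4), Mrpl9 (F = 23.4), Mrpl3 (F = 17.6) and Mrps6 (F = 15.3). Mrpl9 was lowest in C1 (106 to 121 TPM over its 4 libraries), and Mrpl3, a protein near the peptidyl transferase centre, was highest there (74.3 to 89.4 TPM). Without C50 GFP-negative replicate 1, 43 members differed between clones (55.1%, against 44.8% of all genes). Other settings went both ways. Median-ratio scaling gave 10 members (12.8%, against 29.3%) and the transcript length correction 18 (23.1%, against 33.5%). Keeping genes with any TPM above 0 gave 14 (17.9%, against 6.58%).

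The counts of the lists that follow are to be read against the 23.2% of all genes called lower in GFP-positive cells. Among genes that act with the mitochondrial ribosome, 5 further mitochondrial ribosomal proteins with other names were tested (a sixth listed symbol, Ict1, is an older name of the member Mrpl58). Chchd1, Aurkaip1 and Gadd45gip1 fell in GFP-positive cells by 0.44, 0.43 and 0.38, and Dap3 and Ptcd3 (0.12 and 0.04) were not called. None of the 5 was called with dDAVP. Of 25 assembly factors 11 fell (44.0%) and 1 rose in GFP-positive cells; the largest falls were Gtpbp10 (-0.67) and Noa1 (-0.50), both GTPases. The one that rose, Mpv17l2, rose by 0.21 in GFP-positive cells and by 0.45 with dDAVP (limma adjusted p = 0.0288), the only assembly factor called there. Of 16 translation factors 4 fell (25.0%, near the background), among them Taco1 (-0.67), an activator of cytochrome oxidase translation, and Tsfm (-0.40), the exchange factor of the elongation factor Tufm, which fell by 0.34. Of 20 tRNA synthetases and related enzymes 5 fell (25.0%, also near it), led by Yars2 (-0.49) and Cars2 (-0.46), and Nars2 rose by 0.38.

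Of 8 genes of mitochondrial DNA expression 4 fell: Polrmt, the mitochondrial RNA polymerase, fell by 0.53, Polg, the mitochondrial DNA polymerase, fell by 0.53, and Tfam and Ssbp1 fell by 0.34 and 0.30. Of 9 measured transcriptional regulators of mitochondrial genes, 1 fell in GFP-positive cells, Gabpb1, a subunit of GABP (-0.44, limma adjusted p = 0.00407). Nrf1 (-0.21), Gabpa (-0.12) and Ppargc1a (-0.19) were not called. With dDAVP Ppargc1b, a coactivator, fell by 0.80 (limma adjusted p = 0.0362), and Ppargc1a (-0.57, adjusted p = 0.0752) did not pass. Of 14 principal-cell markers tested, 9 rose in GFP-positive cells (64.3%, against 12.1% of all genes) and 2 fell (14.3%, against 23.2%). The median log2 difference of these markers was 0.61, opposite in sign to the -0.27 of the members. Of markers of other cells, Atp6v1b1 rose by 0.81, Lrp2 rose by 0.56 and Csf1r fell by 0.57. The other 6 intercalated, 5 proximal and 5 immune markers averaged under 1 TPM, and the summed levels per library were 19.4 to 110.1, 0.94 to 16.2 and 8.07 to 22.04 TPM. Their part in the members' difference was not tested.

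Of the mitochondrial messages that the ribosome translates, mt-Co2, mt-Co3, mt-Atp6, mt-Atp8 and mt-Nd4l are listed at 0 in every library. A 0 in such a table can be a failed estimate, so no level is given for them. The other mitochondrial protein transcripts summed to 8271 TPM ± 1006 (SD, n = 2) in C11 GFP-negative cells, the lowest group, and to 14543 ± 899 TPM in C43 GFP-positive cells, the highest. Among them mt-Nd3 reached at most 0.9 TPM, so the sum rests on mt-Co1, mt-Cytb, mt-Nd1, mt-Nd2, mt-Nd4, mt-Nd5 and mt-Nd6. In each clone the GFP-positive mean of this sum was above the GFP-negative mean, the opposite order to that of the members. These sums were not tested, and in C50 the GFP-positive value was 12827 ± 3383 TPM against 9769 ± 496 TPM.

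The genes whose order over the 10 group means was most like the average of the members, by Spearman correlation over 13165 genes, were Sem1 (0.988), a proteasome lid subunit, and then 7 genes tied at 0.976: Emc4, Glrx3, Gm4708, Npm3, Ppil3, Psma5 and Rps19bp1. Exons of 33 of the 78 members overlap another gene in the annotation, and the reads of such pairs cannot be fully told apart without strand.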

How the data were processed

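Total RNA of mpkCCD cells was measured in 22 libraries (10 groups; groups and replicate numbers from the sample labels). Per the labels' protocols, cDNA was made with SMART-Seq HT and libraries with Nextera XT, sequenced paired-end. STAR and RSEM are named in the submitters' processing notes; versions, genome build and annotation are not given in the sources used here. The authors deposited expression as TPM, which keep no depth, so depth is unknown and no count test, interval or detection limit was used. Of 55415 lines, 980 that share one of 79 symbols were summed per symbol. A further per-sample-value column (1 in number) was not used.

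Differences are of mean log2(TPM + 1), a pseudocount of 1, which understates changes of low genes. Limma 3.58.1 in R 4.3.3 was fitted with a mean-variance trend. Genes entered with a mean of at least 1 TPM over the libraries of a comparison. The dDAVP fit used the 6 WT libraries. The GFP and clone differences came from 1 fit of the 16 clone libraries with terms for fraction and clone. Within-clone tests and the interaction used the same 16 libraries with a mean per clone and fraction. Tests were two-sided, with Benjamini-Hochberg adjustment over all genes and a threshold of 0.05. The script was tested on simulated data. Promoters came from the RefSeq table, overlaps and transcript lengths from GENCODE M21 matched by identifier (all 78 members matched).

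The members, the lists and the tests were chosen with earlier results of these data known. Named genes are, by rule: in the dDAVP and GFP comparisons the 5 largest rises and falls among called members, the 5 smallest p for clones and interaction among called members, the 5 highest and lowest levels, members around the threshold, landmark proteins, and from other lists the called genes with the 2 largest rises and falls, proteins with other names, regulators, and the genes most alike in pattern. Names outside it (members separated between groups without overlap, within-clone calls, Tufm, Tfam and Ssbp1, Aqp2 and overlapping neighbours) were chosen after their values were seen. Alternatives changed the pseudocount, filter, scaling, moderation, block, covariates and libraries; those for transcript length and genes detected, and group descriptions without C50 GFP-negative replicate 1, were chosen after seeing the data.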

Additional observations from a re-analysis of the deposited data

How the results depend on the processing

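The medians over members for dDAVP and for the GFP fractions over 4 clones kept their direction under all alternatives: 0.04 to 0.16 with dDAVP and -0.29 to -0.21 over the GFP fractions when 1 library was left out, moving to 0.27 with median-ratio scaling (dDAVP) and to -0.17 with the transcript length correction (GFP). No named member that was called reversed. For dDAVP, 2 members are called; 2 to 4 without 1 library, 5 with the transcript length correction, 8 with genes detected as a covariate (all genes called higher rose to 3.95% from 2.37%) and 0 in the 4 WT libraries with more genes detected, where only 4 libraries were fitted. For the GFP fractions 50 members are called; the counts were 42 to 51 without 1 library, 21 with median-ratio scaling, 33 with quantile normalization, 29 with the transcript length correction, 26 with clone means as replicates, and 1 and 22 in the clone libraries with fewer and more genes detected. The causes of these shifts were not tested, beyond the fewer libraries in the last settings.

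Within clones, leaving out 1 library gave 0 to 16 members in C1, 0 to 10 in C11, 3 to 37 in C43 and 21 to 61 in C50. Leaving out either C50 GFP-negative library gave the highest counts in C1, C11 and C43, with more calls over all genes too. The within-clone medians ran from -0.27 to -0.11 in C1, -0.16 to -0.04 in C11, -0.30 to -0.20 in C43 and -0.72 to -0.34 in C50 when 1 library was left out. The C11 median turned to 0.037 with median-ratio scaling and 0.012 with the transcript length correction, where the C43 median was -0.063 and -0.071, and quantile normalization gave -0.10 in C1 and -0.0035 in C11. Median-ratio scaling gave 0 in C1, 1 in C11 and 1 in C43, where 7.50%, 7.59% and 15.7% of all genes were called. Keeping genes with any TPM above 0 gave 0 in C1, 1 in C11 and 5 in C43, beside 1.51%, 1.51% and 3.34% of all genes. The transcript length correction gave 0, 1 and 2, none of them lower, beside 4.70%, 4.80% and 8.67% of all genes lower. Quantile normalization gave 7 in C43 (6.41% lower, against 9.14% of all genes), and fitting without the trend 1 in C1 (1.28% lower, against 4.545%). Fitted on the 4 libraries of a clone alone, C11 had 9 (8.97% lower, under the 11.2% of all genes) and C50 had 0. Clone differences were called for 24 members, and for 17 to 43 without 1 library. Median-ratio scaling gave 10, under the background (12.8%, against 29.3% of all genes). Keeping genes with any TPM above 0 gave 14, over it (17.9%, against 6.58% of all genes). The interaction called 0, and 0 to 40 without 1 library. A correction for protein length was not run, since no protein table was used here.

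The replicate numbers did not pair the libraries: the correlation of deviations of same-numbered libraries was -0.21, -0.03 and -0.11 in WT cells and 0.05, 0.02, 0.20 and 0.08 in C1, C11, C43 and C50, and 0 WT libraries correlated best with their own number. With the replicate block the dDAVP comparison called 0 members and 122 of 13494 genes in all. Its limma adjusted p was 0.0702 for Mrps6 and 0.101 for Mrpl35. With the same block the GFP comparison called 45 members, 43 of them lower (55.1%, against 21.65% of all genes). TPM keep no depth, so what depth limits cannot be stated.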
